A study of Bos taurus with 12 samples.

Results

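The genes described here encode the enzymes and regulators by which a cell keeps reactive oxygen species in check. The set is a list of 38 gene symbols, from the superoxide dismutases to the NRF2 axis, and a gene was taken where the first column of the count table held exactly that symbol. All 38 were found among the 32637 genes of the table, and 37 of them had enough reads to be tested. RNA-seq measured their transcripts in 6 libraries of female and 5 of male expanded bovine (Bos taurus) blastocysts, the stage at which the fluid-filled embryo has thinned its coat. All embryos were produced in vitro from slaughterhouse ovaries, fertilized with cryopreserved bull semen and cultured in a commercial medium under reduced oxygen, and none received a treatment. Sex was assigned by PCR on one piece of each bisected embryo, and each library pooled the remaining pieces of 2 same-sex embryos. The embryos were collected on different days after insemination and in several weeks, from the semen of bulls used in rotation. The labels give neither the week nor the bull of a library, and its title and name do not give the day.

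Superoxide dismutases turn superoxide into hydrogen peroxide, which catalase, glutathione peroxidases and peroxiredoxins then reduce. Most of these peroxidases draw their electrons from glutathione or from thioredoxin. Glutathione is recycled by glutathione reductase and thioredoxin by the thioredoxin reductases, and these reductases spend NADPH. The transcription factor NRF2, encoded by NFE2L2, drives many of these genes when its partner KEAP1 no longer marks it for degradation. Embryos cultured in air are known to be exposed to more oxygen than embryos in the oviduct. The embryos here were cultured under reduced oxygen. Mitochondria are a main source of superoxide in the blastocyst, which carries separate mitochondrial forms of several of these enzymes.

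The female libraries held between 6664112 and 16162985 counted reads, and the male ones between 9942952 and 21392764. Levels are given as CPM, the count relative to the library total, scaled with TMM factors. Exon lengths were not used here, so a level is compared between libraries for one gene and never between genes. In female libraries the 38 genes took 1.17% ± 0.0779 (SD, n = 6) of the counts, and in male libraries 1.13% ± 0.0900 (SD, n = 5). Male replicate 5 stood apart from the rest. Its median correlation with the other males, over log2 CPM of all tested genes, was 0.884, against 0.938 or more for every other library with its own sex. It was also the deepest library, had the fewest genes detected (14937), and had a sum of 10 trophectoderm marker genes of 36145 CPM. That sum lay between 7879 and 23154 CPM in the females and between 9195 and 20252 CPM in the other males. KRT8 alone gave 20142.5 CPM of the sum in male replicate 5, and the list did not rise as a whole. In that library CDX2, KRT8, KRT18, DAB2 and LGALS3 were above every female. GATA2, GATA3, TFAP2A, TFAP2C and PTGS2 were within the female range. None of the marker genes of the inner cell mass (6 tested), trophectoderm (10), hypoblast (5) or cumulus cells (3) was called different between the sexes. Sums of the inner cell mass list overlapped, at 560 to 980 CPM in females and 792 to 1076 CPM in males, as did those of the hypoblast list, at 228 to 621 and 208 to 467 CPM. The cumulus markers INHA, AMH, FOXL2 and TNFAIP6 had too few counts to be tested, and the summed cumulus list lay between 5.38 and 32.7 CPM over all libraries. The part of these differences in the results below was not tested. In such pools of embryo pieces, fewer cells of a type and less RNA per cell cannot be told apart.

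The sexes were compared to ask which of these genes differ between male and female blastocysts. No member was called sex-biased, a call being an FDR under 0.1 with a fold change over 1.5 in edgeR's quasi-likelihood test, adjusted over all 12802 tested genes. Over all tested genes the same rule called 245, or 1.91%. At an unadjusted p under 0.05 there were 5 members, of which TXN2, GPX4 and GSR were higher in males and PRDX4 and MGST2 higher in females. This is 13.5% of the 37 members, beside 13.2% of all tested genes. Of the tested members 21 were higher in males and 16 in females. Their median log2 fold change (male over female) was 0.05, beside 0.01 over all tested genes. The 95% interval of the difference lay within 2-fold in either direction for 19 members and reached past it for the other 18. DESeq2 with the same covariate called 2 members, PRDX4 and MGST2, both higher in females, beside 2.73% of all genes in that fit.

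**Figure D1:**
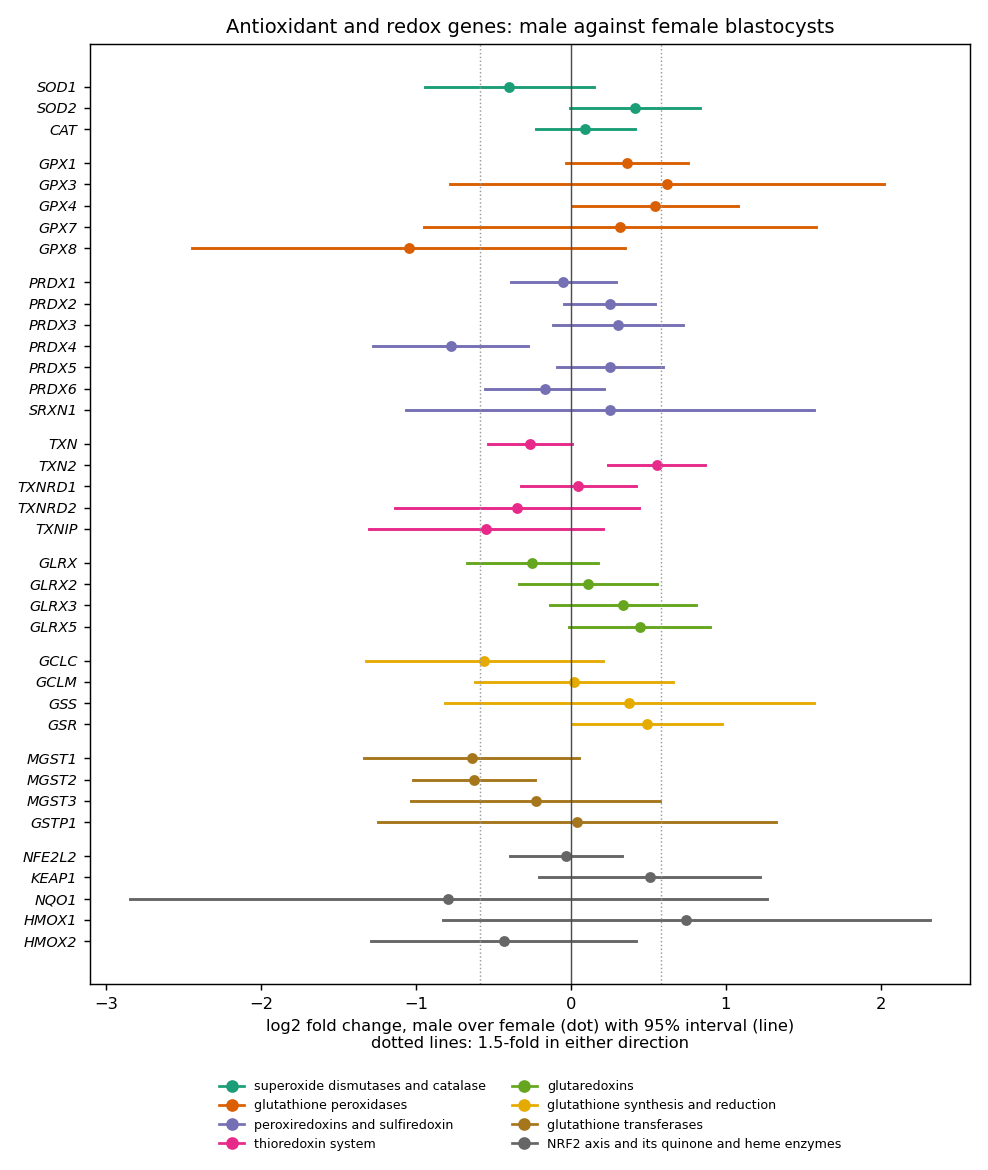
Log2 fold change of male over female for the 37 tested members, grouped by role (dots), with the 95% interval of edgeR's fit (lines) and dotted lines at a fold change of 1.5. The intervals of 5 members lie clear of 0, and those of NQO1 and HMOX1 are the widest.

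The thioredoxin system held the member with the smallest p. TXN2, on chromosome 5 at 74883639 to 74893619 of the ARS-UCD assembly, encodes the thioredoxin of the mitochondrial matrix. Its level in females ran from 162 to 242 CPM with a median of 220 CPM. The males had 308, 242, 337, 362 and 332 CPM in replicates 1 to 5. All males but replicate 2 were above every female, and that one lay just under the highest female. Male over female, this was 0.56 on the log2 scale (standard error 0.14, edgeR adjusted p = 0.102), from means of 212 ± 30.8 CPM (SD, n = 6) and 316 ± 45.9 CPM (SD, n = 5). Its adjusted p was under 0.1 in 6 of 17 alternative fits, among them 0.0807 in edgeR without male replicate 5 and 0.0406 in DESeq2. In each of these the fold change stayed under 1.5. Within the library numbers 1, 2 and 3, the first numbers of the library names, TXN2 was higher in males by a log2 difference of 0.26, 0.94 and 0.57. Number 2 held male replicate 3 alone, so here and below its differences rest on that male library.

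TXN, on chromosome 8, encodes the thioredoxin of the cytosol and nucleus, and its difference had the other sign. Females had from 226 to 286 CPM with a median of 245 CPM, and the males 199, 221, 202, 231 and 213 CPM. The males sat at the lower end, with 1 of them above the lowest female. This was -0.26 on the log2 scale (standard error 0.12, edgeR adjusted p = 0.394). The reductases that keep the 2 thioredoxins reduced showed smaller or less certain differences. TXNRD1, of the cytosol, had a log2 fold change of 0.05 with a 95% interval from -0.32 to 0.42. TXNRD2, of the mitochondria, had -0.35 with an interval from -1.13 to 0.44 on 15 to 68 counts per library. TXNIP, which binds thioredoxin and blocks it, was at 9.68 ± 2.08 CPM over the females (SD, n = 6) and 6.58 ± 4.19 CPM over the males (SD, n = 5). Male replicate 5 had 13.6 CPM of TXNIP and the other males between 2.78 and 6.89 CPM, so that 4 of the 5 males lay below every female.

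**Figure D2:**
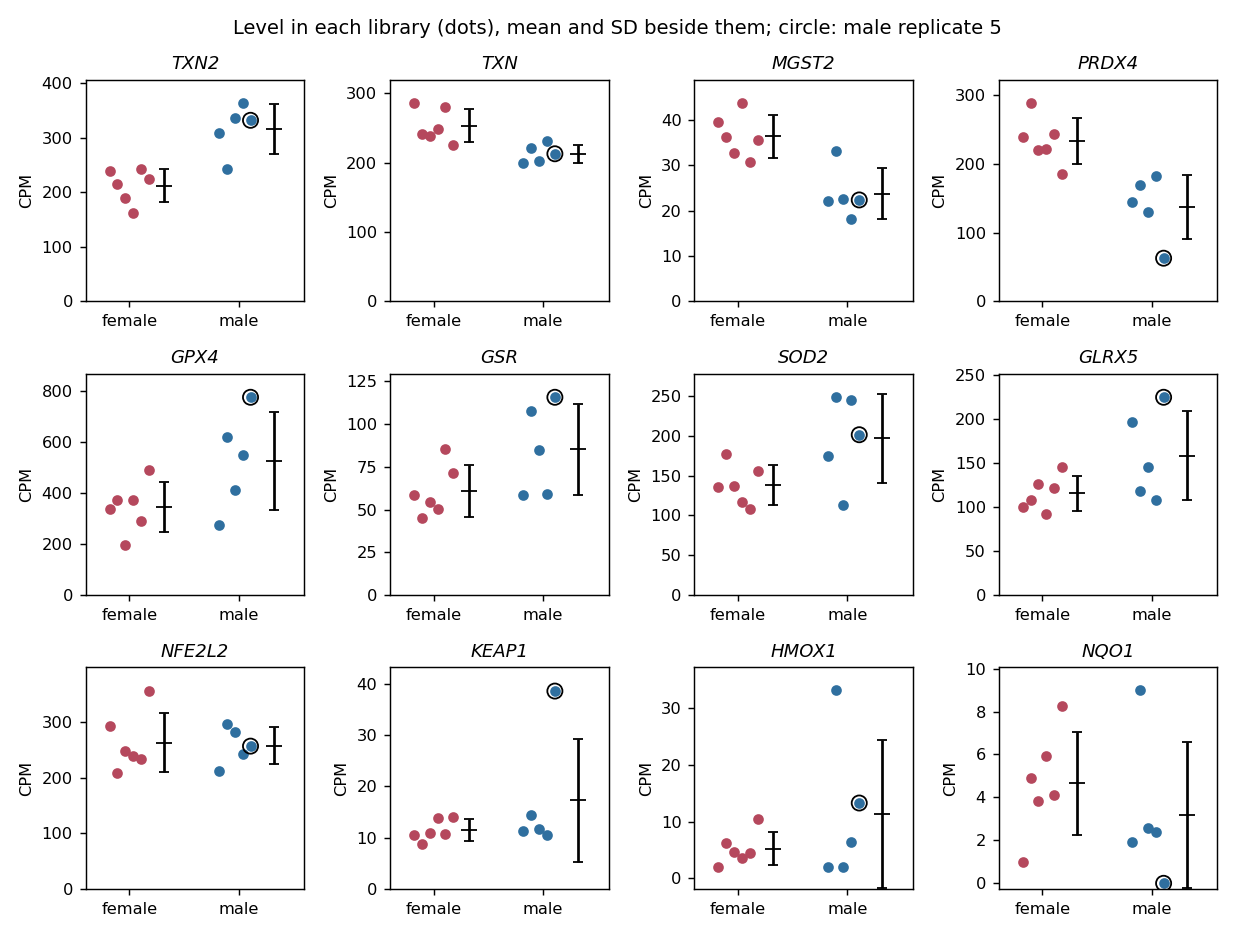
CPM of 12 members in each library, with female libraries on the left and male libraries on the right, the mean and SD beside the dots and a circle around male replicate 5. Only in PRDX4 do the sexes not overlap among these 12, and male replicate 5 is the highest male for GPX4, GSR, GLRX5 and KEAP1 and the lowest for PRDX4 and NQO1.

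SOD2, on chromosome 9, is the manganese superoxide dismutase of the mitochondrial matrix, and SOD1, on chromosome 1, the copper and zinc enzyme of the cytosol. SOD2 lay between 108 and 177 CPM in females with a median of 136 CPM. The males had 175, 248, 113, 245 and 201 CPM, of which 3 were above every female and replicate 3 was among the lowest females. The log2 fold change of SOD2 was 0.42 (standard error 0.19, edgeR adjusted p = 0.38). Within the library numbers it was 0.43, -0.16 and 0.77, so that number 2, with male replicate 3 alone, had the other sign. SOD1 leaned the other way, with 468 ± 80.4 CPM over the females (SD, n = 6), 361 ± 146 CPM over the males (SD, n = 5) and a log2 fold change of -0.40 (standard error 0.25, edgeR adjusted p = 0.543). Males 1, 3 and 5 were below every female, and male 2 lay next to the highest female. SOD3, the secreted form on chromosome 6, was all but silent. Female replicates 1 and 3 held 3 and 2 counts and the other 9 libraries none, so it was not tested. CAT, the peroxisomal catalase on chromosome 15, was close in both sexes, with 142 ± 24.9 CPM over the females (SD, n = 6), 152 ± 12.1 CPM over the males (SD, n = 5) and a 95% interval of the log2 fold change from -0.23 to 0.42.

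Since TXN2 and TXN, and SOD2 and SOD1, leaned in opposite directions, the count of each mitochondrial form was divided by that of its cytosolic partner in the same library. These ratios need no scaling between libraries, they were chosen after the values were seen, and they are given without a test. The ratio of TXN2 to TXN ran from 0.651 to 0.991 in females with a median of 0.849. In the males it was 1.54, 1.1, 1.67, 1.57 and 1.56. Every male was above every female, by a mean log2 difference of 0.82, and the difference within library numbers 1, 2 and 3 was 0.59, 1.21 and 0.76. The ratio of SOD2 to SOD1 ran from 0.198 to 0.367 in females with a median of 0.318. The males had 0.827, 0.422, 0.401, 0.594 and 0.647, again all above every female, with differences of 0.75, 0.58 and 1.19 within the library numbers. Over all 630 pairs of members with counts in every library, 22 such ratios (3.49%) did not overlap between the sexes. They included TXN2 over TXN and SOD2 over SOD1, which were formed because their genes leaned in opposite directions. The share is therefore no measure of how unusual these ratios are. Among the 22 were also pairs without a mitochondrial form, such as PRDX2 over TXN, with males above, and PRDX4 over TXN, with females above. For GLRX2 over GLRX, the mitochondrial and cytosolic glutaredoxins, the sexes overlapped, at 0.170 ± 0.0495 over the females (SD, n = 6) and 0.220 ± 0.0872 over the males (SD, n = 5). The ratio of TXNRD2 to TXNRD1 overlapped as well, at 0.0262 ± 0.00745 (SD, n = 6) and 0.0204 ± 0.00836 (SD, n = 5).

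**Figure D3:**
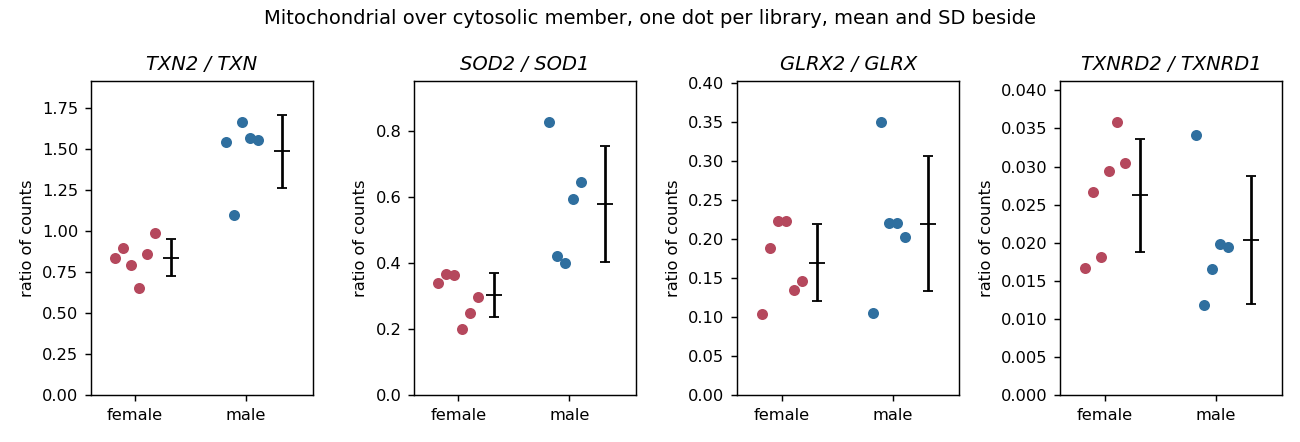
Ratio of counts of a mitochondrial member to its cytosolic partner in each library (dots), with the mean and SD beside. All males are above all females for TXN2 over TXN (lowest male 1.1, highest female 0.991) and for SOD2 over SOD1 (0.401 and 0.367). The sexes overlap for the other pairs. The ratios were chosen after the values were seen.

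Of the 6 members whose protein works mainly in mitochondria (SOD2, PRDX3, TXN2, TXNRD2, GLRX2 and GLRX5), 5 had a positive log2 fold change, with a median over the 6 of 0.36. This is 83.3%, beside 56.8% of the tested members and 50.5% of all tested genes. It was 1 of 3 for the endoplasmic reticulum and 14 of 27 for members of other places. The plan grouped members by role, not by compartment. None of the 6 was called, and TXN2 alone among them had an unadjusted p under 0.05. GLRX5, a mitochondrial glutaredoxin of iron-sulfur cluster assembly on chromosome 21, lay between 91.7 and 145 CPM in females with a median of 115 CPM. The males had 196, 118, 145, 108 and 224 CPM. Replicates 1 and 5 were above all females, replicate 3 lay just over the highest and the others were among them. Males over females, this gave a log2 value of 0.45 (standard error 0.21, edgeR adjusted p = 0.389). The other glutaredoxins were GLRX3, at a log2 fold change of 0.34, GLRX2, at 0.11, and GLRX, at -0.25, and no interval of these excluded 0.

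Among the glutathione peroxidases, GPX4, on chromosome 7 at 43588660 to 43591107, reduces lipid peroxides within membranes. Females had from 197 to 491 CPM with a median of 355 CPM, and the males 275, 620, 412, 551 and 775 CPM. Male replicates 2, 4 and 5 were above every female and the other males among them. On the log2 scale the difference was 0.54 (standard error 0.25, unadjusted p = 0.047, edgeR adjusted p = 0.368). GPX1, the cytosolic enzyme on chromosome 22, was at 527 ± 75.8 CPM over the females (SD, n = 6) and 687 ± 161 CPM over the males (SD, n = 5), a log2 fold change of 0.36 with a 95% interval from -0.03 to 0.75. Male replicate 3 had 450 CPM, below 5 of the 6 females, and the other males were above every female. GPX3, the plasma form, had from 3 to 27 counts per library. It lay between 0.533 and 1.51 CPM in females, with a median of 0.775 CPM, and the males had 1.49, 1.27, 1.67, 2.15 and 0.145 CPM. Male replicate 5 had 3 counts, at the limit below which a count is not read here, and its log2 fold change went from 0.62 to 1.002 without it (edgeR adjusted p = 0.282).

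GPX7 and GPX8 are small peroxidases of the endoplasmic reticulum, where protein folding releases hydrogen peroxide. GPX8, on chromosome 20, had from 0.868 to 8.94 CPM in females. In the males it was at 0.910, 0.634, 1.03, 0.397 and 3.54 CPM, with replicate 5 above the other males. The log2 fold change was -1.05 (standard error 0.64, edgeR adjusted p = 0.527) in all libraries. Without male replicate 5 it was -1.93 (adjusted p = 0.0949 in the same edgeR test), past the threshold, beside 2.81% of all genes called in that fit. GPX7 was at 2.09 ± 0.916 CPM over the females (SD, n = 6) and 2.78 ± 2.27 CPM over the males (SD, n = 5), where replicate 5 had 6.59 CPM, its log2 fold change turning from 0.32 to -0.22 without that library.

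Most of the peroxiredoxins take electrons from thioredoxin, whereas PRDX6 uses glutathione. PRDX4 is their member of the endoplasmic reticulum and the one gene of the 38 that lies on the X chromosome, at 119515820 to 119531948. Its level in females ran from 185 to 288 CPM with a median of 230 CPM. The males had 145, 168, 130, 182 and 62.7 CPM. Every female was above every male, though the highest male lay close to the lowest female, and male replicate 5 lay far below the others. Among all tested genes, 1.88% had every female above every male. The log2 fold change was -0.77 (standard error 0.23, edgeR adjusted p = 0.158), and within library numbers 1, 2 and 3 the difference was -0.74, -0.76 and -0.99. PRDX4 was called female-biased without male replicate 4 (log2 fold change -1.03, edgeR adjusted p = 0.0528) and without male replicate 5 (-0.60, 0.0742), where 1.71% and 2.81% of all genes were called, and was not called in the other fits that left out 1 library. For comparison, X-linked genes as a class had a median log2 fold change of -0.85 over 476 tested genes, of which 27.7% were called female-biased and 29.2% had every female above every male. At an unadjusted p under 0.05, 62.6% of these X-linked genes were higher in females, as PRDX4 was.

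The remaining peroxiredoxins are autosomal and showed narrow intervals. PRDX1, of the cytosol and nucleus, was at 3242 ± 490 CPM over the females (SD, n = 6) and 3089 ± 524 CPM over the males (SD, n = 5), a log2 fold change of -0.05 with a 95% interval from -0.39 to 0.29. PRDX2, another cytosolic form, had 0.25 (interval -0.04 to 0.55), and its levels were 2273 ± 235 CPM over the females (SD, n = 6) and 2738 ± 402 CPM over the males (SD, n = 5). PRDX3, of the mitochondria, had 0.31 (interval -0.11 to 0.73), PRDX5 0.25 (interval -0.09 to 0.60) and PRDX6 -0.17 (interval -0.55 to 0.22). SRXN1, the sulfiredoxin that restores overoxidized peroxiredoxins and a well known NRF2 target, varied more than any difference between the sexes. It ran from 0.799 to 7.84 CPM in females and from 1.03 to 13.2 CPM in males, and its log2 fold change was 0.25 with a standard error of 0.61.

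In glutathione metabolism, GSR, the glutathione reductase on chromosome 27 at 26801918 to 26846927, was among the 5 members with a small unadjusted p. It lay between 44.8 and 85.6 CPM in females with a median of 56.6 CPM, and the males had 58.7, 108, 85.0, 59.3 and 116 CPM. Replicates 2 and 5 were above every female, and the remaining males were within the female range. Its log2 difference was 0.49 (standard error 0.22, unadjusted p = 0.0479, edgeR adjusted p = 0.371). Glutathione itself is made by glutamate-cysteine ligase, with the catalytic subunit GCLC and the modifier subunit GCLM, and by glutathione synthetase, GSS. GCLC was at 36.8 ± 8.57 CPM over the females (SD, n = 6) and 26.8 ± 14.7 CPM over the males (SD, n = 5), where replicate 5 had 7.27 CPM and the rest lay between 19.4 and 46.9 CPM. GCLM had close means, at 17.1 ± 5.63 CPM (SD, n = 6) and 17.3 ± 5.27 CPM (SD, n = 5), with a 95% interval of the log2 fold change from -0.62 to 0.66. GSS was highest in male replicate 5, at 14.6 CPM, and lay between 2.25 and 6.55 CPM in the other males and between 1.0 and 7.18 CPM in females.

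Glutathione transferases couple glutathione to electrophiles, and the microsomal forms also reduce lipid peroxides. MGST2, on chromosome 17 at 18024427 to 18062257, ran from 30.7 to 43.6 CPM in females with a median of 35.8 CPM. The males had 22.1, 33.2, 22.6, 18.1 and 22.3 CPM. Male replicate 2 lay among the females and the other males were below every female. The log2 fold change was -0.62 (standard error 0.18, edgeR adjusted p = 0.148), with -0.48, -0.74 and -0.71 within the library numbers. DESeq2 with the library number called it female-biased (log2 fold change -0.62, DESeq2 adjusted p = 0.056), whereas edgeR did not in any fit that left out 1 library. MGST1 and MGST3 varied widely among the females. MGST1 had 50.03, 167, 30.6, 52.4, 123 and 163 CPM in female replicates 1 to 6, and between 48.7 and 77.8 CPM in males. MGST3 had 18.7, 58.6, 59.2, 50.7, 17.1 and 25.1 CPM in the same females and between 13.6 and 41.6 CPM in males. When genes down to 1 count were tested, MGST1 was called female-biased (log2 fold change -0.63, edgeR adjusted p = 0.0885), beside 3.11% of all genes in that fit. GSTP1, the pi-class transferase of the cytosol, had from 7 to 47 counts per library, and its interval ran from -1.24 to 1.33 on the log2 scale.

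The regulators themselves showed no difference that passed the test. NFE2L2, on chromosome 2 at 19617016 to 19649649, was at 209 to 356 CPM in females with a median of 243 CPM, and the males had 212, 296, 282, 242 and 257 CPM. The males lay within the female range, and the log2 fold change was -0.03 with a 95% interval from -0.39 to 0.33, which lies within 1.5-fold either way. KEAP1, on chromosome 7 at 15009368 to 15018278, ran from 8.79 to 14.1 CPM in females with a median of 10.8 CPM. The males had 11.3, 14.5, 11.6, 10.6 and 38.6 CPM. Replicate 5 was more than any other library, and the other males were within or next to the female range. The log2 fold change of 0.51 (standard error 0.33, edgeR adjusted p = 0.554) was 0.08 without that library.

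NQO1, a quinone reductase on chromosome 18, had from 0.990 to 8.25 CPM in females with a median of 4.49 CPM. The males had 1.90, 8.98, 2.57, 2.38 and 0 CPM. Male replicate 5, the deepest library, had no count, which allows up to 0.145 CPM by a limit of 3 counts. HMOX1, the inducible heme oxygenase on chromosome 5, had from 2.06 to 10.4 CPM in females with a median of 4.58 CPM, and the males had 2.07, 33.2, 1.93, 6.36 and 13.3 CPM. Male replicate 2 was the highest library, and the log2 fold change of 0.75 (standard error 0.72, edgeR adjusted p = 0.713) turned to -0.37 without it. HMOX2, the constitutive form on chromosome 25, was at 22.3 to 24.9 CPM in 4 males and at 91.5 CPM in male replicate 5, and at 23.0 to 84.9 CPM in females.

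Pools of one sex differed from each other in many members. The ratio of the highest to the lowest library of a sex was under 2 for 22 of the 37 tested members in females and for 15 in males, or 21 in males without replicate 5. Male replicate 5 was the highest male for 11 members and the lowest for 9, in all 54.1% of the members, against 68.0% of all tested genes. Its low members included PRDX4, GCLC, NQO1 and GPX3, and its high members KEAP1, GSS, GPX4, GLRX3 and HMOX2.

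**Figure D4:**
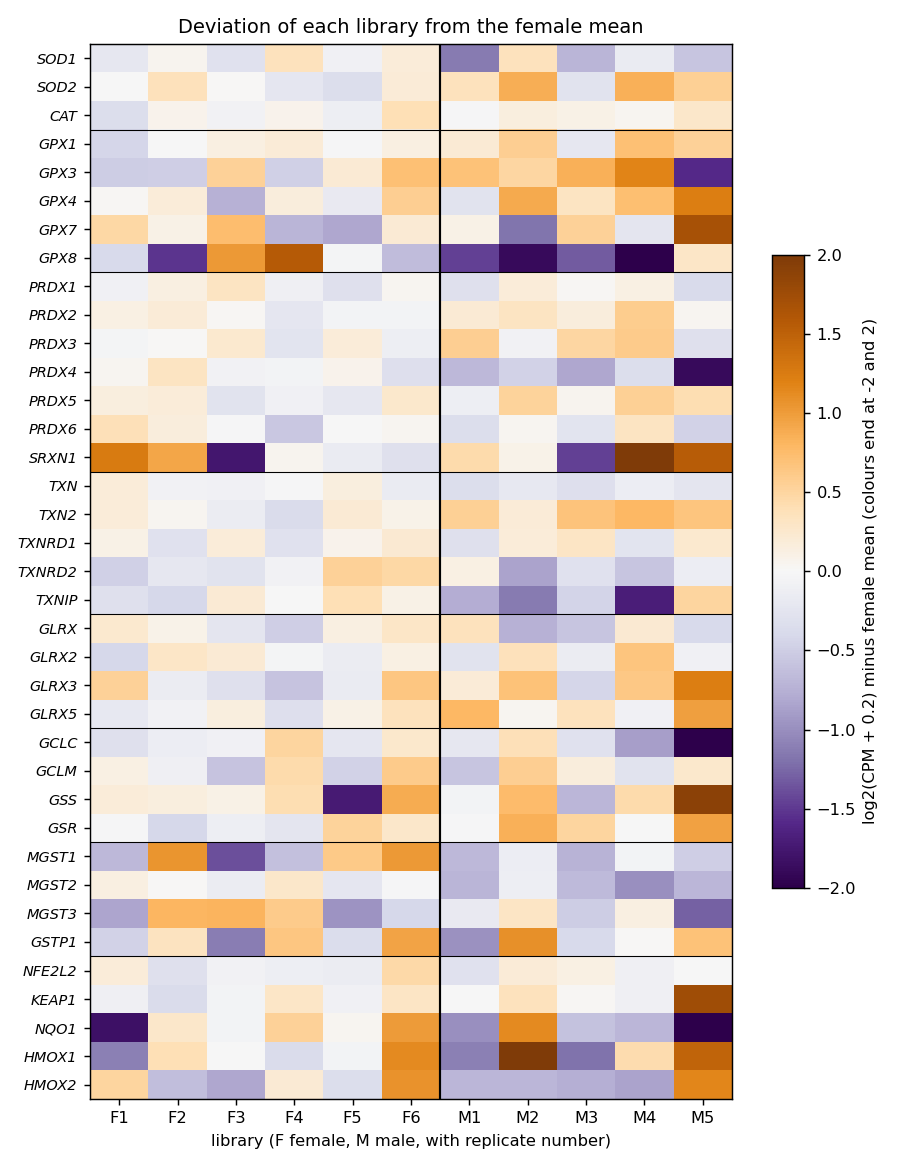
Difference of log2(CPM + 0.2) from the female mean for the 37 members with enough counts (rows, grouped by role) in the 6 female (F) and 5 male (M) libraries, with colours ending at -2 and 2. TXN2 is positive in every male column and PRDX4, TXN and MGST2 negative, and the column of male replicate 5 has the lowest PRDX4, GCLC and NQO1 and the highest KEAP1.

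Beyond the 38 genes, 95 other genes of redox metabolism were listed, among them selenoproteins, NADPH-producing enzymes, other glutathione transferases and partners of NRF2. Of these, 93 were in the table and 86 were tested. None was called sex-biased. At an unadjusted p under 0.05, 9 were higher in males and 6 higher in females. Together these are 17.4% of the 86 tested, beside 13.2% of all tested genes. Over all tested genes, 6.26% were higher in males and 6.95% higher in females at that p. The median log2 fold change of the 86 was 0.07. CCS, the chaperone that loads copper into SOD1, was at 8.49 ± 1.45 CPM over the females (SD, n = 6) and 4.49 ± 1.42 CPM over the males (SD, n = 5), with every female above every male (log2 fold change -0.92, standard error 0.29, edgeR adjusted p = 0.189). The glutathione transferases GSTA4 and GSTM3 also had every female above every male, at log2 fold changes of -0.61 and -1.81 (edgeR adjusted p = 0.252 and 0.176). With CCS these were 3 of the 86 tested, beside 1.88% of all tested genes. GSTM3 was low, at 2.59 ± 1.24 CPM over the females (SD, n = 6) and 0.827 ± 0.569 CPM over the males (SD, n = 5). Every male was above every female for SELENOH, a nuclear selenoprotein, with a log2 fold change of 0.44 (edgeR adjusted p = 0.272). The same held for GSTZ1, of tyrosine breakdown, with 0.86 (edgeR adjusted p = 0.28), and 1.43% of all tested genes were separated in that direction. TKT, the transketolase of the pentose phosphate pathway, was higher in males by 0.61 on the log2 scale (standard error 0.20, edgeR adjusted p = 0.221). DESeq2 with the library number called 4 of the listed genes, CCS, GSTM3, QSOX1 and MTARC1, all higher in females, beside 2.73% of all genes in that fit.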

How the data were processed

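RNA-seq was analysed for 6 female and 5 male pools of expanded blastocysts, named by sex and replicate as the labels give them, and a 4-cell Iso-seq sample was not used here. The authors used fastp 0.20.0 for trimming and STAR 2.7.10b for alignment against the ARS-UCD bovine assembly, and deposited whole-number counts per gene from featureCounts, without normalization. How reads shared by near-identical copies, such as processed pseudogenes, were counted is not given in the sources used here, and the library kit does not mark strand. In the annotation GLRX overlaps RHOBTB3, GLRX2 overlaps RO60, TXNRD1 overlaps EID3 and TXN overlaps LOC132346006. The median counts of these overlapping genes were 601, 303, 122 and 14. GPX8, PRDX6, GLRX3 and KEAP1 also overlap other genes, with median counts of 26 or less. The limit of 3 counts reflects counting error alone, because PCR copies of one molecule were not told apart.

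Counts of all genes were filtered with filterByExpr, scaled with TMM factors and tested with the quasi-likelihood test of edgeR 4.0.16 (R 4.3.3), male against female, with the library number from 1 to 3 as a block, because the study used the collection week as a covariate and the labels do not give it. Benjamini-Hochberg adjustment ran over 12802 genes, and calls needed an FDR under 0.1 and a fold change over 1.5. Intervals are 95% intervals of the fit and hold the spread between libraries. Log2 differences within a library number used log2 CPM with a prior count of 2. For number 2 they set male replicate 3 alone against female replicates 3 and 4. Coordinates came from the RefSeq table of the same assembly, which matched all 38 symbols. The test was also run on simulated counts with known changes. These were drawn without a library number effect or a library set apart, so they do not check it for such data.

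The members and the gene lists were chosen with earlier results of these data known. Library values were printed for members with an unadjusted p under 0.05 or no overlap between the sexes, filled up to 8 by the smallest p, for NFE2L2 and KEAP1, for members too low to test and for the 3 with the largest spread within a sex. Further members were described after their values were seen, and of the other redox genes CCS, GSTA4, GSTM3, SELENOH, GSTZ1 and TKT were. Alternatives were RLE scaling, TMM scaling on autosomes, a looser and a stricter filter, no block, DESeq2 1.42.0, other thresholds and fits without each library.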

Additional observations from a re-analysis of the deposited data

Results flagged for a closer look

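Within each sex, the levels of the 37 tested members were screened for a library far from the others of its sex by Dixon's criterion at the 95% level, which chance alone meets in about 1 of 20 groups, or 3.70 of the 74 groups screened. There were 4 such values, so their number is near that. Of these, 3 were in male replicate 5, with KEAP1 at 38.6 CPM (the next male at 14.5 CPM), HMOX2 at 91.5 CPM (next male 24.9 CPM) and GPX8 at 3.54 CPM (next male 1.03 CPM). The other was NQO1 in male replicate 2, at 8.98 CPM with the next male at 2.57 CPM.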

How the results depend on the processing

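The count of members called was 0 in edgeR's test. It was 0 as well with RLE factors, TMM factors from autosomal genes, the stricter filter and no block on the library number. In the main fit it was also 0 at an FDR of 0.05, and when no minimum fold change was asked. TXN2 had an edgeR adjusted p of 0.0997 with RLE factors, 0.0996 with the stricter filter and 0.0716 without the block. There it missed a call only by its fold change. The count was 2 with all genes of 1 or more counts tested (PRDX4 and MGST1) and 2 in DESeq2 (PRDX4 and MGST2). In these fits 3.11% and 2.73% of all genes were called, beside 1.91%. Without single libraries it ran from 0 to 2, with PRDX4 called without male replicate 4 and PRDX4 and GPX8 without male replicate 5. Other redox genes called numbered 0, but 5 and 4 in the same fits, and from 0 to 1 without single libraries, the 1 being SELENOF without male replicate 5. The members' median log2 fold change ran from -0.11 without male replicate 2 to 0.15 without male replicate 1, a range that includes 0. HMOX1 ran from -0.37 to 1.23 and NFE2L2 from -0.11 to 0.078 without single libraries, each changing sign. DESeq2 and the test of every gene moved the median over all genes by -0.10 and -0.09, with low genes among those tested, whereas RLE factors moved it by 0.00. The library number was checked as a pairing: deviations of the sexes from their means correlated at 0.01, 0.37 and 0.20 across genes for numbers 1, 2 and 3, so the number is not shown to pair the libraries. Without the block on the library number, 326 of all genes were called in place of 245, and no member. The search for an antioxidant response element in promoters was not run, since no promoter sequence was at hand. Of the 37 members, 26 had over 100 counts in every library.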
